A study of Mus musculus with 10 samples.

Results

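The G1 cyclins and the inhibitors of their kinases were followed in the left ventricle of mouse hearts under pressure overload. The genes were the D-type cyclins Ccnd1, Ccnd2 and Ccnd3, the E-type cyclins Ccne1 and Ccne2, the CIP/KIP inhibitors Cdkn1a (p21), Cdkn1b (p27) and Cdkn1c (p57), and the INK4 inhibitors Cdkn2b (p15) and Cdkn2c (p18). Every probe whose gene symbol was one of these was taken. This gave 13 probes for 10 genes, of 26423 probes and 19942 gene symbols on the array. Of these, 11 probes of 9 genes stayed above the intensity filter in every sample. Cdkn2c did not, and 1 of the Ccnd3 probes did not.

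Male C57BL/6J mice of 8 weeks underwent transverse aortic banding (TAB), which narrows the aorta and loads the left ventricle with pressure, or a sham operation. Left-ventricle RNA was taken at an early stage (days 3, 5 and 7) and a late stage (days 14 and 28), and read in 1 colour (Cy5) on a whole-genome oligonucleotide array, with 1 TAB and 1 sham sample on each day and 10 samples in all. The number of mice behind a sample is not stated, and 1 field of the TAB day 14 label reads 15 days. A single day has no replicate, so the 5 days served as replicates of the operation, and p-values measure the spread between days, which mixes time with biological and array noise.

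The cyclins of G1 are the regulatory subunits that switch on the kinases which carry a cell from rest into S phase. D-type cyclins bind Cdk4 and Cdk6 and start the phosphorylation of the retinoblastoma protein, and E-type cyclins bind Cdk2 and complete it, which frees E2F factors to drive genes of DNA replication. INK4 proteins block Cdk4 and Cdk6, whereas CIP/KIP proteins bind complexes that hold a cyclin. Adult cardiomyocytes divide rarely, so in the adult heart these genes are read from cardiomyocytes together with fibroblasts, endothelial cells and immune cells. In bulk tissue, fewer cells of a type and less RNA per cell cannot be told apart.

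The RefSeq promoter table (GRCm38.p6) held 9 windows for 6 of the 10 genes, each of 300 bases from 250 before to 50 after a transcription start. The windows at the gene start of Cdkn2b, Ccne1, Cdkn1a and Cdkn1b are printed because these genes passed the test of TAB against sham below. Of the genes that passed, Ccnd1 was not analysed here at the level of its promoter. Both strands were searched for the GC box GGGCGG bound by Sp1, the TATA box TATAAA, the E2F site TTTNNCGC and the p53 half-site. Capitals mark the matches, and a match is a description of letters, not evidence of binding.
Cdkn2b, chr4:89310983-89311282, minus strand: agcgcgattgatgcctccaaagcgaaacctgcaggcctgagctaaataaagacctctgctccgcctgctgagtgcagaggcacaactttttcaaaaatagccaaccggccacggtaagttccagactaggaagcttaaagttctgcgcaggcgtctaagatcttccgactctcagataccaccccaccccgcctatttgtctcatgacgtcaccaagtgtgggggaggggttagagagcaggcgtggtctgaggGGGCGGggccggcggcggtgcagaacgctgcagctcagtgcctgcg
Ccne1, chr7:38107441-38107740, minus strand: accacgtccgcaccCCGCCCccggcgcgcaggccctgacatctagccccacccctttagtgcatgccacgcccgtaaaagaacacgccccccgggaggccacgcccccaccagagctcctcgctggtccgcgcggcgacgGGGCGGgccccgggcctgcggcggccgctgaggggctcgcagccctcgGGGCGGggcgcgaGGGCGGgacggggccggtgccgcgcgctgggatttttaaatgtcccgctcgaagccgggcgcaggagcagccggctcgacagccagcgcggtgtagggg
Cdkn1a, chr17:29090729-29091028, plus strand: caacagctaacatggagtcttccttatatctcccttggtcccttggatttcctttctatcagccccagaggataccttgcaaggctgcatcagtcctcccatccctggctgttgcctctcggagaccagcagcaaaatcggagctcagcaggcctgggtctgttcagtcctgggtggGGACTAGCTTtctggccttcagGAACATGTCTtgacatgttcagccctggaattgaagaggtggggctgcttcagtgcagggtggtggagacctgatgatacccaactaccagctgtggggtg
Cdkn1b, chr6:134920151-134920450, plus strand: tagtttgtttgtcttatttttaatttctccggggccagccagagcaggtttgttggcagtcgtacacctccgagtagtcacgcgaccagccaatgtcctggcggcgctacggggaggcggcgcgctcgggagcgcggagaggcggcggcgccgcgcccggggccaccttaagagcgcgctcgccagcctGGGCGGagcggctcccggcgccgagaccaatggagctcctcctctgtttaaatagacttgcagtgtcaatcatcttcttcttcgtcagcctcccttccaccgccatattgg

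The Ccne1 window held 4 GC boxes and was the richest in G and C of these 4, at 76.0%, against a median of 52.7% over all 32851 windows of the table. The Cdkn1b window held 1 GC box, 61 bases before the start, and the Cdkn2b window held 1, 4 bases after it. GC boxes occurred in 35.7% of all windows. The Cdkn1a window held no GC box but 2 matches to the p53 half-site, 73 and 51 bases before the start, and this motif occurred in 8.36% of all windows. A second Cdkn1a window, at an inner start, held 2 GC boxes and no p53 half-site. None of the 9 windows held the E2F or the TATA letters, which occurred in 5.17% and 13.6% of all windows.

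Over the 5 days, 4 of the 9 measured genes were higher after TAB, 1 was lower and 4 did not pass the test. Cdkn2b, Ccne1, Ccnd1 and Cdkn1a were higher, and Cdkn1b was lower. The calls of Ccne1 and Cdkn2b rest on readings of which most in sham came from spots marked as not found. For Ccne1 this also held in TAB, where its spot was found on 1 of 5 arrays. The test was limma on log2 normalized intensity, in which TAB and sham of a day formed a block, with p-values adjusted by Benjamini and Hochberg over 16113 genes and a threshold of 0.05. It called 9.19% of all genes higher and 7.87% lower. The median of the 9 mean log2 ratios (TAB over sham) was 0.65, beside −0.03 over all genes, and it turned to −0.43 when only probes found on all 10 arrays were kept. In 3 genes, Ccnd1, Cdkn1a and Cdkn2b, all TAB values lay above all sham values, which held for 9.99% of all genes. None had all TAB values below all sham values, against 7.76% of all genes. With probes below 1 set to 1 instead of removed, Ccnd1, Ccne1, Cdkn1a and Cdkn1b no longer passed (limma adjusted p = 0.0503, 0.0640, 0.0776 and 0.0573), with log2 ratios of 0.84, 1.79, 0.65 and −0.64, while the calls over all genes fell from 2749 to 677. Leaving out a day also changed which genes passed. Without day 3, 5 or 7 no gene of the set passed, while the calls over all genes fell to 30, 98 and 22. Without day 14 only Cdkn2b passed, of 947 genes called, and without day 28 Ccnd1, Ccne1, Cdkn2b and Cdkn1b passed, of 2753. Genes of the set with all TAB values above sham numbered 5 without day 14, when 12.8% of all genes did so. Those with all values below numbered 1 without day 3 and 3 without day 28, beside 11.1% and 14.6% of all genes.

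**Figure D1:**
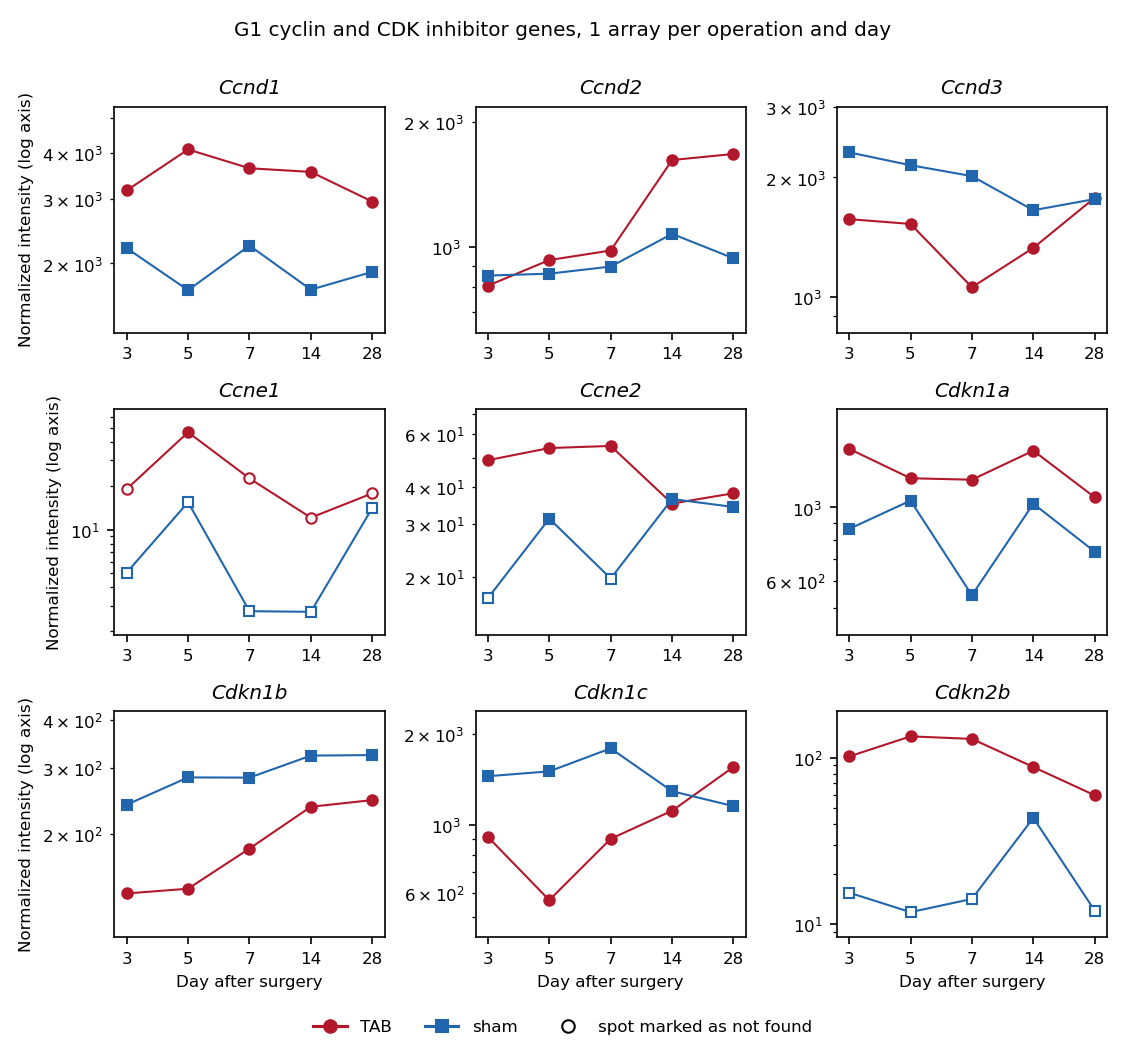
Normalized intensity (log axis) of the 9 measured genes by day after surgery, 1 array per operation and day; circles are TAB, squares are sham, and open symbols are spots marked as not found. Ccnd1, Cdkn1a and Cdkn2b have every TAB value above every sham value, and Cdkn1b is lower after TAB on each day while its ranges overlap.

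Markers of cell types were read beside these results, and some of them differed between TAB and sham. Of 8 macrophage markers tested, 8 were higher after TAB, and their summed normalized intensity ranged from 9471 to 22565 in TAB and from 5538 to 6812 in sham. Of 7 fibroblast markers tested, 5 were higher, with sums of 29950 to 48122 in TAB and 20173 to 23372 in sham. Cardiomyocyte markers, among them Myh6 and Tnnt2, were found on every array, and 1 of 10 (Mb) was lower, with sums of 281110 to 291710 in TAB and 286640 to 320790 in sham. The Mb probe used, 1 of 2 kept, read 221 to 264 in TAB and 356 to 419 in sham, a small part of these sums. Myl2, another cardiomyocyte marker, read at the scanner's ceiling on 9 of 10 arrays, so the sum cannot show a change in it. Atrial markers summed to 2845 to 4997 in TAB and 4523 to 10151 in sham, and 0 of 4 passed the test. None of 8 endothelial markers passed, with sums of 8044 to 11555 in TAB and 8331 to 10204 in sham. Of 4 genes listed for smooth muscle, 2 were higher (Tagln and Des), with sums of 6792 to 8841 in TAB and 5283 to 7063 in sham. Tagln was found on 4 TAB and 0 sham arrays, and Myh11 and Acta2 did not pass. Des alone read 5492 to 6908 in TAB and 4092 to 5154 in sham. The sum thus mostly follows Des, and no change in smooth muscle is read from it. Of 6 T cell markers, 2 were higher (Lck and Cd3d) and 1 was lower (Cd3e), with sums of 291 to 374 in TAB and 319 to 463 in sham. Lck was found on 5 TAB and 0 sham arrays, and Cd3d on 2 and 0. Cd3g was found on 0 TAB and 1 sham array, Cd4 on 1 and 0, and Cd8a on no array. Cd3e alone read 187 to 294 in TAB and 287 to 427 in sham, so the sums mostly follow Cd3e. The part of cell composition in the changes of the cyclins and inhibitors was not tested.

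Cyclin D1 is the D-type cyclin that growth signals induce. Its normalized intensity after TAB was 3168, 4102, 3644, 3560 and 2953, from day 3 to day 28. After sham it was 2203, 1690, 2239, 1696 and 1897. All TAB values of Ccnd1 lay above all sham values; the lowest TAB value, 2953, stood clear of the highest sham value, 2239. The mean log2 ratio was 0.84 ± 0.15 (SE, n = 5 days), a 1.79-fold difference (limma adjusted p = 0.0233). Its day ratios ran from 0.52 on day 3 to 1.28 on day 5, and the mean of days 3 to 7 (0.84) was close to that of days 14 and 28 (0.85).

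Cyclin D2, which shares the role of D1, showed no such step. The Ccnd2 probe used gave 808, 930, 981, 1617 and 1672 after TAB and 854, 863, 898, 1075 and 939.5 after sham, in the same order of days. The log2 ratios of days 3 to 7 lay between −0.08 and 0.13, and the TAB samples of days 14 and 28 stood above all others. Its mean log2 ratio of 0.32 ± 0.16 (SE) did not pass (limma adjusted p = 0.224). The other Ccnd2 probe ran below sham on days 3 to 7, at log2 ratios of −0.19, −0.13 and −0.14, and above it on days 14 and 28, at 0.72 and 0.44. Over the 10 samples the log2 values of both probes correlated with r = 0.80, and both put the higher TAB values on days 14 and 28.

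Cyclin D3 had lower readings after TAB on most days but did not pass. Ccnd3 stood at 1572, 1529, 1061, 1331 and 1779 after TAB and at 2312, 2147, 2016, 1655 and 1766 after sham. TAB was below sham on days 3 to 14 and level with it on day 28, and the ranges overlapped. On average the log2 ratio was −0.46 ± 0.15 (SE), which missed the threshold (limma adjusted p = 0.0897). It passed with trend and robust on (limma adjusted p = 0.0289), with 50 added before log2 (limma adjusted p = 0.0366) and with only probes found on all 10 arrays (limma adjusted p = 0.0347). It turned to 0.24 ± 1.96 (SE) with probes below 1 set to 1, where the other probe was used. The other Ccnd3 probe was found only on TAB days 3, 5 and 7 and sham days 5, 7 and 14, with raw intensities of 3 and 0 on TAB days 14 and 28, and was removed by the filter. On days 5 and 7, when it was found in TAB and in sham, it read above sham, at raw intensities of 1121 against 676 and 902 against 413. The probe used read below sham on these days, so the probes disagree there. Where found on only 1 array of a day, it read 705 against 5 on day 3 and 3 against 328 on day 14.

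Cyclin E1 is the partner of Cdk2 at the entry to S phase. Its probe was dim: normalized intensity was 19.04, 46.9, 22.6, 12.1 and 17.8 after TAB and 5.06, 15.5, 2.74, 2.72 and 14.1 after sham. The spot was found on 1 of 5 TAB arrays, that of day 5, and on 0 of 5 sham arrays. TAB was above sham on each day, but the ranges overlapped. The fitted log2 ratio of these readings was 1.81 ± 0.37 (SE, limma adjusted p = 0.0292), and with 50 added before log2 it was 0.33 (limma adjusted p = 0.0275). Since 4 TAB spots and all sham spots were marked as not found, neither value measures the size of a change, and no fold is given.

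Cyclin E2 was read by a pair of probes that disagreed. The probe used, the one with the larger summed ratio, gave 49.0, 53.8, 54.7, 35.1 and 38.0 after TAB and 17.02, 31.3, 19.8, 36.4 and 34.2 after sham. It was found on all 5 TAB arrays and on sham days 5, 14 and 28. TAB exceeded sham on days 3 to 7 and was close to it on days 14 and 28. Its mean log2 ratio of 0.77 ± 0.28 (SE) did not pass (limma adjusted p = 0.101). The other probe was found on all 10 arrays and gave 75.3, 108, 94.8, 128 and 84.9 after TAB and 137, 92.9, 122, 110.0 and 215 after sham. Its mean log2 ratio was −0.43, with TAB below sham on 3 of 5 days, and the probes correlated with r = −0.42 over the 10 samples. No direction is given for Ccne2.

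**Figure D2:**
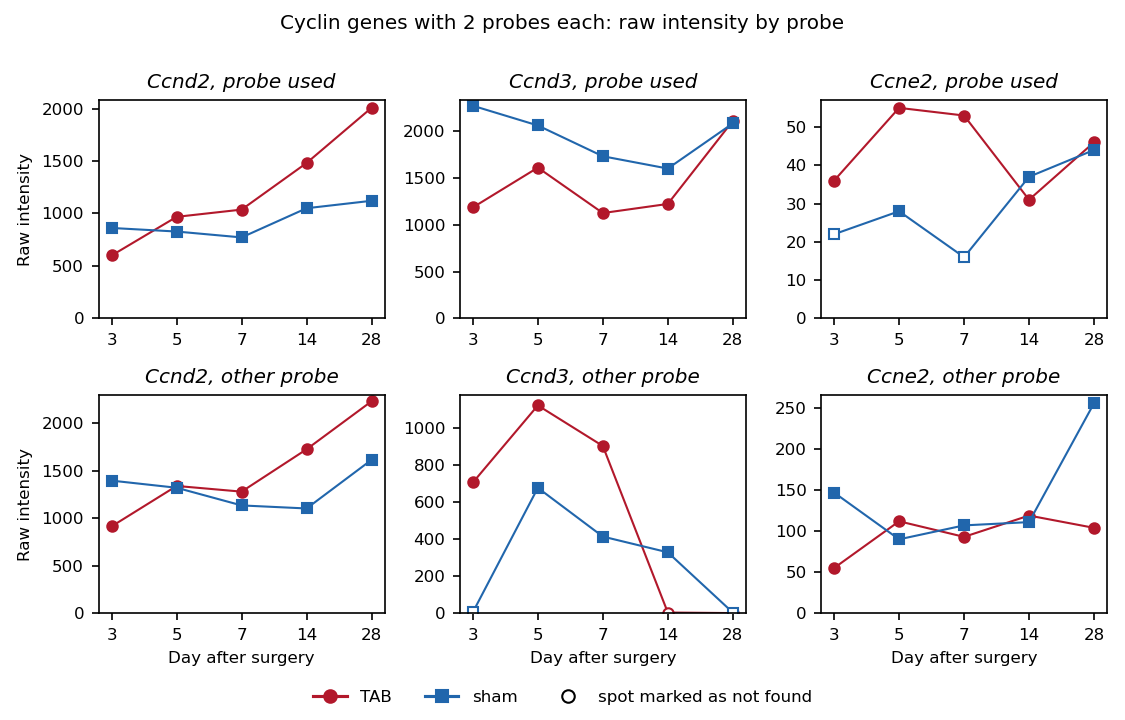
Raw intensity (linear axes from 0) of the Ccnd2, Ccnd3 and Ccne2 probes by day after surgery, 1 panel per probe; circles are TAB, squares are sham, and open symbols are spots marked as not found. Both Ccnd2 probes read above sham on days 14 and 28. The Ccne2 probes order TAB and sham differently, as do the Ccnd3 probes on days 5 and 7.

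p21, encoded by Cdkn1a, is the inhibitor induced by p53 and by stress. It stood at 1499.7, 1224, 1212, 1481 and 1073 after TAB and at 862, 1049, 545, 1026 and 737 after sham. Every TAB value lay above every sham value, although the lowest TAB value, on day 28, was close to the highest sham value, on day 5. The mean log2 ratio was 0.65 ± 0.16 (SE), a 1.57-fold difference (limma adjusted p = 0.0405). The day ratios ran from 0.22 on day 5 to 1.15 on day 7. The call was lost in each fit that left a day out, with limma adjusted p from 0.0638 to 0.116 and log2 ratios from 0.52 to 0.75.

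p27, encoded by Cdkn1b, holds resting cells out of the cycle and was the one gene of the set called lower. It stood at 139.5, 143.6, 183, 236 and 246 after TAB and at 239, 282, 282, 323 and 324 after sham. TAB was below sham on all 5 days, while the ranges overlapped because the TAB value of day 28 exceeded the sham value of day 3. The mean log2 ratio was −0.64 ± 0.13 (SE, limma adjusted p = 0.0274), which makes sham 1.56-fold higher. The difference was widest on day 5, at −0.98, and narrowest on day 28, at −0.39.

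p57, encoded by Cdkn1c, is an imprinted inhibitor. It stood at 916, 567, 903, 1118 and 1559 after TAB and at 1454, 1509, 1796, 1297 and 1158 after sham. TAB was below all sham values on days 3, 5, 7 and 14, and on day 28 it was above 4 of them. A mean log2 ratio of −0.57 ± 0.27 (SE) did not pass (limma adjusted p = 0.189), with day ratios from −1.41 on day 5 to 0.43 on day 28.

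p15, encoded by Cdkn2b, is an INK4 inhibitor induced by TGF-beta and was higher after TAB on all 5 days. It stood at 102, 134, 129.6, 87.9 and 59.4 after TAB and at 15.5, 11.8, 14.2, 43.5 and 12.1 after sham. Every TAB value lay above every sham value, and the sham sample of day 14 stood above the other sham samples. The spot was found on all 5 TAB arrays and on 1 of 5 sham arrays, that of day 14. The fitted log2 ratio of these readings was 2.55 ± 0.36 (SE, limma adjusted p = 0.0172), and it was 1.13 with 50 added before log2 (limma adjusted p = 0.00441). Because 4 of 5 sham readings came from spots not found, neither value measures the size of the change, and no fold is given. Of the fits that left out a day, it passed without day 14, at 2.93, and without day 28. The sham sample of day 14 also had the highest summed atrial markers, 10151 against 4523 to 6804 on the other sham arrays, and the part of this in its Cdkn2b value was not tested. p18, encoded by Cdkn2c, was found on no array, with raw intensities from −2 to 4, and has no value here.

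**Figure D3:**
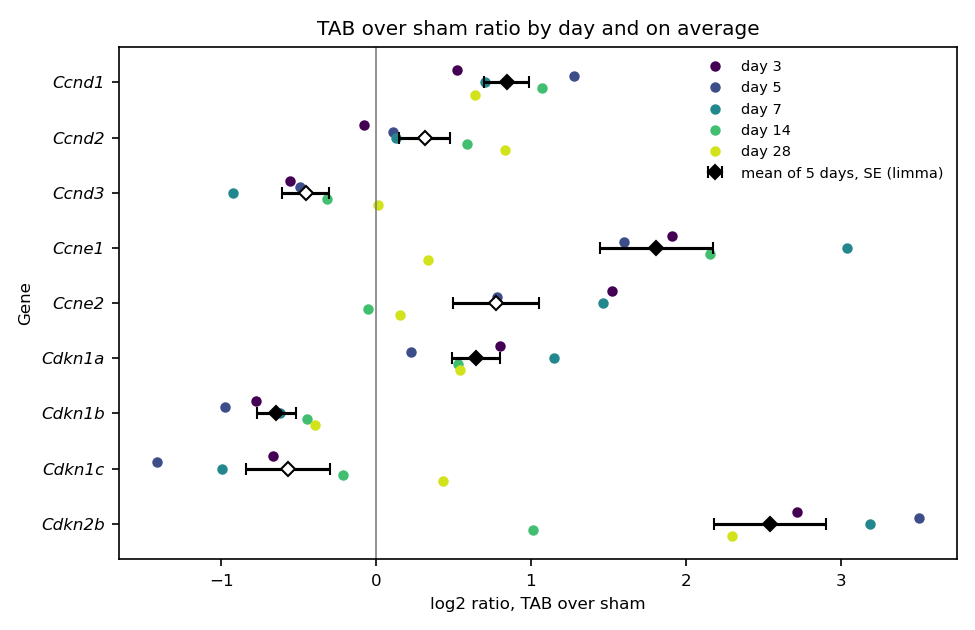
log2 ratio of TAB over sham (x axis) for the 9 measured genes; coloured points are the 5 days, diamonds with bars are the limma mean and SE, and filled diamonds mark genes with adjusted p under 0.05. The ratios of Ccne1 and Cdkn2b are of readings mostly not found in sham, and for Ccne1 also in TAB, and show no size. Cdkn1b is below 0 on all 5 days, and Ccnd2, Ccnd3, Ccne2 and Cdkn1c have open diamonds.

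On single days, a gene was called when its log2 ratio was over 2 SDs of that day's ratios from 0, which took 1.78, 1.93, 1.75, 1.48 and 1.38 on days 3 to 28. Of 45 gene-by-day values, 7 were called up and 0 down, and all 7 belonged to Ccne1 or Cdkn2b. Ccne1 was called on days 3, 7 and 14, on each of which its spot was found on neither array. Cdkn2b was called on days 3, 5, 7 and 28, on each of which its sham spot was not found. Over all genes the rule called 3.1%, 4.09%, 4.08%, 3.39% and 3.41% up and 2.1%, 1.43%, 1.58%, 2.27% and 2.47% down on days 3, 5, 7, 14 and 28. These calls rest on 1 array against 1 array and carry no test.

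The TAB effect of 4 genes differed between early and late days at an unadjusted p under 0.05. For Cdkn2b, whose sham spot was found on day 14 alone, the log2 ratio of the readings averaged 3.14 on days 3 to 7 and 1.66 on days 14 and 28, which cannot be read as a difference in size. The Ccne2 probe used went from 1.26 to 0.05, but the other Ccne2 probe read −0.86, 0.22 and −0.36 on days 3 to 7, above sham on 1 of these 3 days. Cdkn1c and Ccnd2 went from −1.02 and 0.05 early to 0.11 and 0.71 late. The late minus early difference was −1.21 ± 0.30 (SE) for Ccne2 and −1.48 ± 0.47 for Cdkn2b, which was −0.84 without day 14, the day of the sham array that stood apart for this gene. It was 1.13 ± 0.34 for Cdkn1c and 0.66 ± 0.20 for Ccnd2. None of the 4 passed limma with adjustment over all genes, with adjusted p from 0.398 to 0.412. At that threshold the test called 0% of all genes (lowest adjusted p 0.191), and 11% of all genes had an unadjusted p under 0.05. The late stage holds 2 days and the early stage 3.

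Most genes that act beside the G1 cyclins and inhibitors did not pass. Of 30 partners listed, 25 were tested, 4 were higher, 2 were lower and 19 did not pass, beside 9.19% higher and 7.87% lower over all genes, and their median log2 ratio was 0.15. Without day 3, 5, 7 or 14 none passed. With probes below 1 set to 1, 0 were higher and 1 was lower, beside 459 and 218 over all genes, and with trend and robust on 8 were higher and 4 lower, beside 2130 and 2064. Cdk4, Tfdp1 and Cks1b were not analysed here, and Cdkn2a and Rbl2 fell under the filter. E2f7, a repressor of the E2F family, was called higher (limma adjusted p = 0.0255). Its normalized intensity was 44.1 to 114 in TAB, found on all 5 arrays, and 6.64 to 33.0 in sham, found on 1, so no size is given. Rbl1, the retinoblastoma relative p107, had 1.32 (limma adjusted p = 0.0442) and was found on 4 of 5 sham arrays. Its day 3 ratio was 2.83, where sham read 14.1 against 39.4 to 51.3 on the other sham days. Fbxo4, an F-box protein linked to cyclin D1 turnover, had 0.42 (limma adjusted p = 0.0383). Skp2, the ubiquitin ligase subunit that targets p27, was called higher (limma adjusted p = 0.0264), but its spot was found on no array, so no size is given.

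Fbxw7, the ligase subunit that targets cyclin E, was lower at −0.87 (limma adjusted p = 0.0246), and Ccnh, the cyclin of the Cdk-activating kinase, was lower at −0.43 (limma adjusted p = 0.0434). The kinase genes Cdk2 and Cdk6 and the retinoblastoma gene Rb1 did not pass. Cdk2 was at 0.25 (limma adjusted p = 0.181), Cdk6, found on 2 of 5 sham arrays, at 0.98 (limma adjusted p = 0.0948) and Rb1 at 0.15 (limma adjusted p = 0.472). E2f1, found on 4 of 5 sham arrays, stood at 1.51 (limma adjusted p = 0.106). Its day 14 ratio was 3.85, where sham read 4.84 against 36.6 to 54.7 on the other sham days. The INK4 gene Cdkn2d stood at 0.34 (limma adjusted p = 0.0768).

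Of 20 E2F target genes of DNA replication and cell division, 15 were tested, 6 were higher, 0 were lower and the median log2 ratio was 0.95, beside 9.19% higher and 7.87% lower over all genes. Without day 3, 5, 7 or 14 none passed, and without day 28 11 were higher, while 30, 98, 22, 947 and 2753 genes of all passed in these fits. Pcna was not analysed here, and Cdk1, Tyms, Cdc6 and Chek1 fell under the filter. The topoisomerase gene Top2a was called higher (limma adjusted p = 0.0291). Its normalized intensity was 64.6 to 495 in TAB, found on all 5 arrays, and 1.63 to 41.0 in sham, found on 1, so no size is given. Cyclin A2 (Ccna2) was at 2.81 and ribonucleotide reductase subunit Rrm2 at 2.49 (limma adjusted p = 0.0315 and 0.0223), each found on 5 TAB and 3 sham arrays. The replication genes Mcm6, Cdt1 and Mcm3 were at 1.47, 1.16 and 0.95 (limma adjusted p = 0.0265, 0.0370 and 0.0347), with all spots found. With probes below 1 set to 1, 1 E2F target passed, of 677 genes called in all. The count was 9 with median scaling alone, 10 without the day block, and 11 both with 50 added and with trend and robust on, beside 2637, 3598, 4469 and 4194 genes called in all.

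Of 18 p53 targets other than Cdkn1a, 17 were tested, 4 were higher, 0 were lower and the median log2 ratio was 0.02, beside the same 9.19% and 7.87% over all genes. None passed without day 3, 5 or 7, and 2 passed without day 14. The 4 were Phlda3, a repressor of Akt, at 1.30, Zmat3, a zinc finger gene, at 0.88, Bax, a promoter of apoptosis, at 0.76, and the kinase gene Plk3 at 0.75 (limma adjusted p = 0.0154, 0.0210, 0.0156 and 0.0466). Mdm2, which targets p53 for degradation, was at 0.02 (limma adjusted p = 0.912), and Ccng1 was at −0.24 (limma adjusted p = 0.173).

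**Figure D4:**
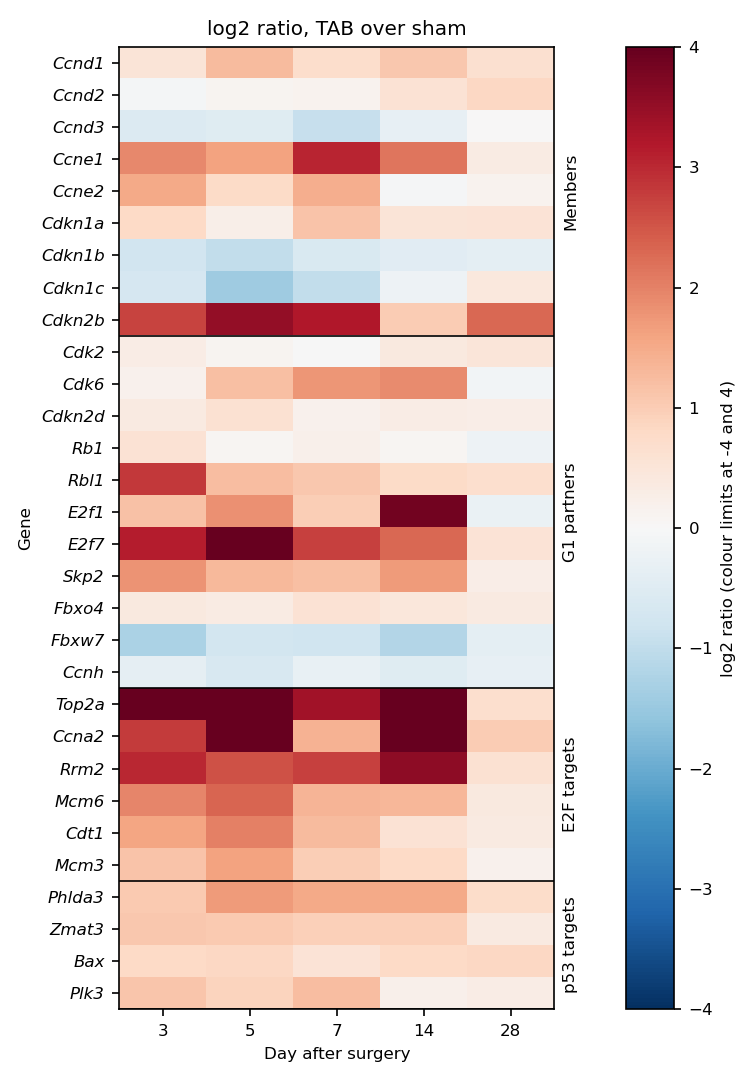
log2 ratio of TAB over sham by day after surgery for the 9 measured cyclin and inhibitor genes and for named G1 partners, E2F targets and p53 targets; red is higher after TAB, blue is lower, and the colour saturates at the ends of the scale. The partners and targets drawn are those called in the average TAB effect plus Cdk2, Cdk6, Cdkn2d, Rb1 and E2f1, so they do not show the lists as a whole.

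The genes most alike in level over the 10 samples were found for members whose spots were found on all arrays, among 10535 genes. For Ccnd1 they were the protease gene Capn5 (Pearson r = 0.979), the cyclophilin gene Ppic (r = 0.976) and the lipid kinase gene Pik3cg (r = 0.974). For Cdkn1b they were Zswim7 (r = 0.981), Txlnb (r = 0.979) and the kinase gene Mapkapk5 (r = 0.977). For Cdkn1a the highest was Myl12b, a myosin regulatory light chain gene, at r = 0.948. For Cdkn1c it was the transcription factor gene Tcf15 at r = 0.958. These correlations describe 10 samples that share the operation and its days, and the highest of many are high by choice.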

How the data were processed

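Left-ventricle mRNA of 5 TAB and 5 sham samples was measured on a 1-colour Cy5 array. Per spot, the authors deposited a raw intensity (background subtracted, method not stated), a detection p-value, which was not used, and a flag; a negative flag was read as a spot not found, since its meaning is not stated. The genome build of the probes is not given in the sources used here.

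Median scaling of the arrays came first, after which 6447 of 26423 probes were dropped for a scaled intensity under 1 on at least 1 array. Quantile normalization then gave all 10 samples the median value at each rank. Where a gene kept several probes, the one whose absolute log2 ratios summed highest stood for it, a rule that favours larger ratios. limma 3.58.1 in R 4.3.3 tested the average TAB effect with day as a block, and the late minus early difference on the day ratios. The steps were tested on simulated data. Where a spot was found on at most 1 array of a group, no fold is given; a fitted log2 ratio printed for Ccne1 or Cdkn2b is one of readings, not a size. The samples were paired by day, as the labels give it; deviations from the group means correlated from −0.0165 to 0.113. Python 3.11.15, numpy 2.4.6, pandas 2.3.3 and matplotlib 3.10.9 were used.

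All 10 genes are named, with the partners and targets called in the average effect (at most 6 a list) and a few fixed by name. The members, the lists and the naming rule were chosen with earlier results of these data known. Median raw intensity was 34 to 57 per array, and 40.2% to 47.3% of spots were not found; the number of arrays limits the precision. Alternatives were other scalings, filters, probe rules, thresholds and fits, and each day left out.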

Additional observations from a re-analysis of the deposited data

Results flagged for a closer look

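In 2 of 22 groups of 5 arrays, 1 array stood apart from the other 4 by Dixon's criterion, whose chance rate is about 5% of groups. The sham sample of day 14 read 43.5 for Cdkn2b, against 11.8 to 15.5 on the other sham arrays, a gap of 0.793 of the range. It was also the only sham array on which that spot was found. The same sample read 1132 for the Ccnd2 probe that was not used, against 1321 to 1397, a gap of 0.734 of the range. The summed atrial markers of this sample, 10151, were also the highest of the sham arrays (4523 to 6804 on the others). The arrays of a group are different days, so time and sample cannot be told apart here.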

How the results depend on the processing

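The main fit called 4 genes higher and 1 lower. With intensities under 1 set to 1, 1 was higher and 0 were lower. With only probes found on all 10 arrays, where Cdkn2b and Ccne1 drop out, 2 were higher and 2 lower. The lower count was 2 with 50 added before log2 and 2 with trend and robust on. In these 3 settings the lower gene added was Ccnd3, which the main fit did not call. With a day left out, 0 to 3 genes were higher and 0 to 1 lower, while 22 to 2753 genes were called in all. Without day 14, 1 gene was higher, of 947 genes called in all. Without day 28, 3 were higher and 1 lower, of 2753. Without the replicate block (day left out of the fit), 5 genes were higher and 1 lower, beside 1951 and 1647 over all genes. Ccne2 was the gene added (limma adjusted p = 0.0428).

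The median log2 ratio of 0.65 was 0.30 with 50 added, −0.43 with found probes only, 0.14 with the brightest probe and 0.23 with the mean of all probes. Day calls up were 14 at an absolute log2 ratio of at least 1 (9.07% up and 7.28% down over all genes and days) and 1 with found probes only (3.36% and 1.3%), beside 7 with the 2 SD rule (3.61% and 1.97%). Day calls down, 0 before, were 1 at that threshold and 1 with found probes only. They were 2 with 50 added (1.46% down over all genes and days), 1 with probes set to 1 (2.68%) and 1 with the brightest probe (1.87%). Genes with all TAB values above sham were 3 to 5 with a day left out, and genes below were 0 to 3. The late minus early test called 0 genes of the set with median scaling alone, with trend and robust on, and without day 3, 5 or 7. For the other scalings, filters and probe rules its count is not given.

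With 50 added, Ccne1 moved from 1.81 to 0.33 and Cdkn2b from 2.55 to 1.13. Ccne2 turned to −0.30 with 50 added and to −0.43 with found probes only or the brightest probe, and Ccnd3 to 0.24 with probes set to 1, where its other probe was used. The late minus early difference of Ccnd1, near 0, turned to −0.11 with median scaling alone and to −0.14, −0.048 and −0.20 without day 3, 7 or 14, and that of Cdkn1a to 0.025 without day 7. The list medians turned to −0.032 for partners and −0.013 for p53 targets with found probes only, and for p53 targets to −0.022, −0.013 and −0.012 without day 3, 7 or 28.

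Over all 16113 genes, 1481 were higher and 1268 lower. The counts were 1782 and 855 with median scaling alone, and 1871 and 950 with normalization within each operation. They were 2242 and 2227 with 50 added, and 2130 and 2064 with trend and robust on. With probes set to 1 they were 459 and 218 of 19942 genes, and with found probes only 1928 and 2046 of 11059. The causes were not tested. Ccne1 and Cdkn2b rest on dim spots, Ccne2 on probes that disagree, and the Ccnd3 probes disagree on days 5 and 7.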
